A study of Mus musculus with 36 samples.

Results

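Lgr5, Cd34, Sox9, Lhx2, Nfatc1, Foxc1, Tbx1, Fgf18, Postn and Angptl7 were taken as hair follicle (HF) bulge identity genes. All 10 were listed in both count tables, among 20181 genes for Lrig1 GL cells and 22587 genes for Lgr5 GL cells, and all 10 passed the filter on low counts in each population. The rule lists them by name and applies no measured value, but the members were chosen with earlier results of these data known. Counts of members set beside the share of all genes are therefore a description. The members were followed for a loss and return of follicle identity after skin injury. The mice were adult Lrig1-EGFP-ires-CreERT2 or Lgr5-EGFP-ires-CreERT2 animals carrying Rosa26-fl/STOP/fl-tdTomato. All groups, the uninjured one included, had received a single topical dose of hydroxytamoxifen on the tail skin, so that Lrig1- or Lgr5-expressing cells and their progeny were genetically labelled (GL) with tdTomato. The uninjured group is named 0w. Labelled cells were also sorted after a first full-thickness tail wound (1w, 2w, 4w and 8w pw1) and 1w after a second wound made at 8w (1w pw2). No unwounded group was sampled at these later times. In comparisons against 0w, and in those between later time points, wounding, the age of the mice and the time since labelling therefore cannot be told apart. Each of the 12 groups had 3 libraries, which gave 36 in all. The study gives the mouse as its unit of replication for these profiles. Replicates are numbered 1 to 3 for the 15 libraries whose count column matches a labelled sample, and lettered a to c for the 21 whose column gives the group alone. Only cells that drove Cre at the time of labelling, and their descendants, could be sampled, and each sorted zone held the wound bed as well as distal HFs. The CreERT2 reporter of the Lgr5 line sits in the Lgr5 gene itself, so the dose of intact Lgr5 alleles and the population cannot be told apart for that gene.

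The bulge is the lower permanent part of the HF, where slow-cycling stem cells rest between rounds of hair growth. Bulge cells are recognised by surface molecules such as CD34 and the R-spondin receptor LGR5, by a set of transcription factors that maintain the stem cell state and its quiescence, and by secreted factors deposited in the niche. After wounding, HF cells can leave the follicle and contribute to the interfollicular epidermis. Lrig1 marks stem cells of the upper follicle, and Lgr5 marks those of the bulge and hair germ.

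Sequencing depth was 765252 to 3365666 counts a library for Lrig1 GL and 1297798 to 6960537 for Lgr5 GL cells. At these depths 3 counts correspond to between 1.01 and 3.39 CPM in the former and between 0.389 and 2.92 CPM in the latter. CPM are counts relative to library size, scaled by TMM (trimmed mean of M-values) within each population, and group values are the mean ± SD of 3 libraries. The noncoding RNA Gm12415 held a share of at least 12% and at most 52.1% in every Lgr5 GL library. In Lrig1 GL libraries its share was at most 0.000212%, and the source of this difference between the count tables was not tested. Leaving Gm12415 out changed none of the calls of the members. Summed over 6 keratinocyte markers, libraries held at least 8306 CPM. The fibroblast markers summed to between 120 and 569 CPM in Lgr5 GL and between 29.4 and 395 CPM in Lrig1 GL libraries, with Fbln1 and Dcn highest, and their part in the results was not tested. Endothelial markers summed to at most 19.8 CPM, immune markers to at most 33.3 CPM, melanocyte markers to at most 48.3 CPM and Schwann cell markers to at most 34.3 CPM. Cd3e, Cd3g, Trdc, Lyz2, Cd207, Itgam, Mlana, Tyrp1 and Tie1 were not listed in either table. In bulk samples such as these, fewer cells of a type and less RNA per cell cannot be told apart.

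Before injury, the levels of the members per length of exon (CPM per kb, both populations scaled together) spanned a wide range in Lgr5 GL cells. Angptl7 (522 ± 380) and Sox9 (512 ± 175) stood highest and did not differ beyond their spread, followed by Postn (274 ± 79.8). Tbx1 (56.7 ± 17.3), Nfatc1 (49.0 ± 25.8), Lgr5 (47.5 ± 10.9), Lhx2 (44.4 ± 5.37) and Fgf18 (42.5 ± 32.2) formed a middle group whose neighbours were within 1 SD of each other. Cd34 (25.7 ± 11.3) lay within the spread of Fgf18, and Foxc1 (5.82 ± 0.43) was lowest. In Lrig1 GL cells the same scale gave Sox9 (310 ± 144), Postn (224 ± 71.7) and Nfatc1 (63.9 ± 13.8) as the 3 highest members, and Fgf18 (1.94 ± 2.96) as the lowest.

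In Lgr5 GL cells the members were lower in the weeks after the first wound, and fewer of them lay below the 0w level at 8w pw1. All 10 had a log2 fold change below 0 at 1w, 2w and 4w pw1, against 52.9, 48.3 and 50.3% of all genes tested, while 6 did at 8w pw1 (49.3%) and 9 at 1w pw2 (50%). The median log2 fold change of the members was -1.40 at 1w, -0.80 at 2w, -1.11 at 4w, -0.20 at 8w pw1 and, after the second wound, -0.43, and the median over all genes tested stayed between -0.08 and 0.03. A gene was called across the time course if the edgeR quasi-likelihood F-test gave an adjusted p under 0.05 and the log2 fold change passed 1 in size at any time point. Sox9 (adjusted p = 0.0369), Fgf18 (0.00848) and Angptl7 (0.00747) were called, which is 3 of 10 members beside 1.13% of all 18025 genes tested. Cd34 (0.0808), Postn (0.179), Nfatc1 (0.183), Lhx2 (0.252), Lgr5 (0.344), Foxc1 (0.561) and Tbx1 (0.600) did not pass. The call of Sox9 was lost without 1 of 13 libraries (adjusted p from 0.0520 to 0.0799), that is, any library other than 0w replicate c, 1w pw1 replicate 1 or 3, 4w pw1 replicate a or 8w pw1 replicate a. With 2 surrogate variables the adjusted p of Angptl7 was 0.0628, whereas Fgf18 and Angptl7 kept their calls without any single library.

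**Figure D1:**
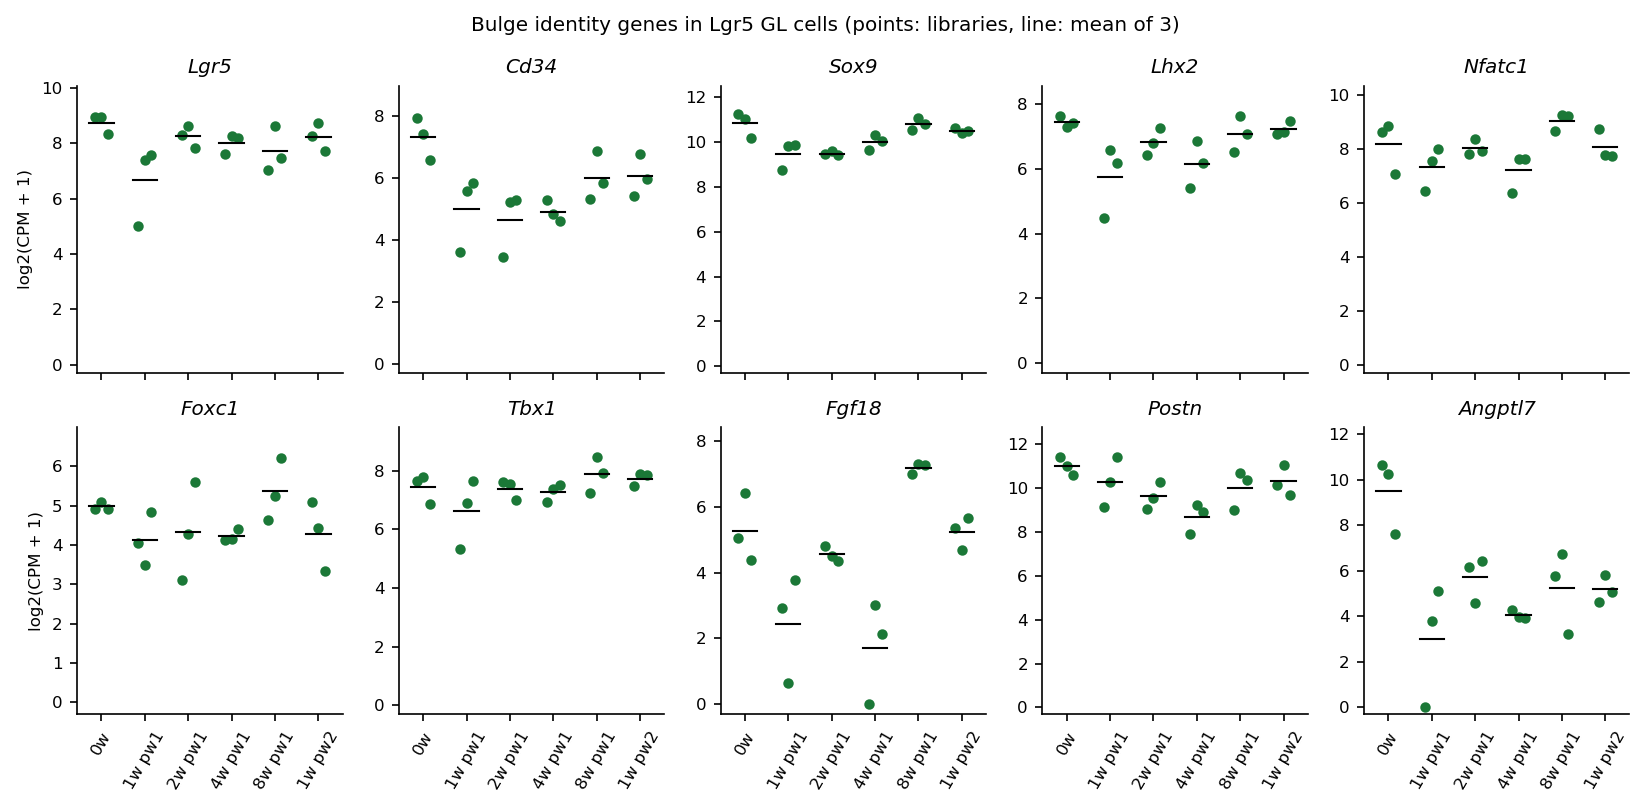
Level of each bulge identity gene in Lgr5 GL cells, as log2 of TMM-scaled CPM plus 1, at 6 time points, where points are libraries and lines are the mean of the 3 log2 values. Angptl7 lies lower at every later time point than at 0w, Sox9 and Fgf18 are low at 1w pw1 and high at 8w pw1, and the Fgf18 libraries at 8w pw1 (126 to 155 CPM) lie above all others.

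Non-overlap of the 3 libraries of a time point with the 3 at 0w followed the same course over the group. All 3 libraries lay below all 3 at 0w for 7 of 10 members at 1w pw1 (9.8% of all genes tested), for 5 at 2w (5.73%) and for 7 at 4w pw1 (7.79%). At 8w pw1 only Angptl7 was below (1 of 10, 4.7%) and Fgf18 was above (1 of 10, 6.49%), and at 1w pw2 only Angptl7 was below (1 of 10, 5.33%). These counts are a description, since the smallest two-sided p of an exact permutation test on 3 against 3 libraries is 0.1.

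**Figure D2:**
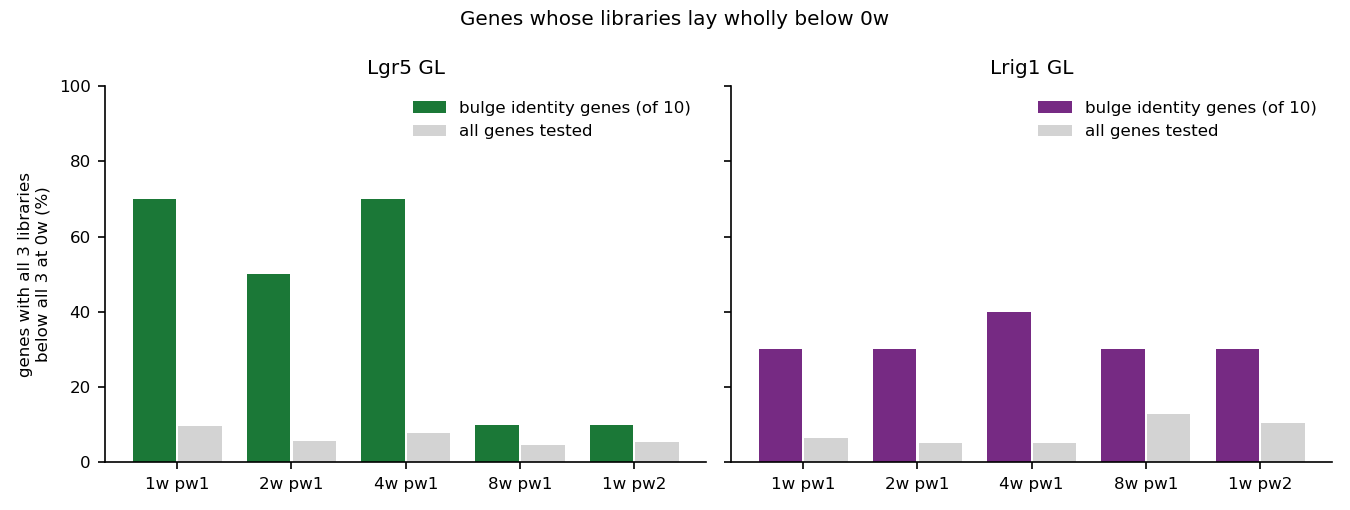
Percent of genes whose 3 libraries all lay below the 3 libraries at 0w, for the 10 bulge identity genes (coloured bars) and for all genes tested (grey bars), at each later time point. In Lgr5 GL cells the coloured bars stand for 7, 5 and 7 of 10 genes up to 4w pw1 and for 1 of 10 at 8w pw1 and 1w pw2, and in Lrig1 GL cells for 3 or 4 of 10 at each time point.

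Of the surface markers in Lgr5 GL cells, Lgr5 was lowest at 1w pw1 and Cd34 was low from 1w to 4w pw1, both without a call. Lgr5 (GRCm38 chr10:115450311-115587780, minus strand) measured 499, 494 and 321 CPM at 0w and 31.3, 168 and 191 CPM at 1w pw1. Its libraries then held between 225 and 400 CPM at 2w, 197 and 307 CPM at 4w, 129 and 396 CPM at 8w pw1 and 209 and 425 CPM at 1w pw2. The 1w pw1 libraries did not overlap with those at 0w (log2 fold change -1.75 ± 0.52 (SE), adjusted p = 0.0919), and 1 of them was far below the other 2. Cd34 (chr1:194938819-194961279, plus strand), a sialomucin used to sort bulge cells, measured 242, 169 and 94.1 CPM at 0w. Its group means were 38 ± 23.8 CPM at 1w, 28.1 ± 15.8 CPM at 2w and 29.6 ± 7.47 CPM at 4w pw1, with no library above 56.4 CPM. The log2 fold changes of -2.15 ± 0.61, -2.59 ± 0.62 and -2.52 ± 0.63 had adjusted p of 0.0836, 0.216 and 0.135. At 8w pw1 (38.4, 115 and 55.5 CPM) and 1w pw2 (41.8, 109 and 61.0 CPM) the libraries overlapped with 0w, at 41.4 and 41.9% of the 0w mean. The exons of Cd34 overlap those of the antisense gene Gm16897 over 148 bases (2.03% of its exon length), and reads there cannot be told apart, since no strand setting of the counting is given in the sources used here.

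Sox9 was the only member transcription factor called in Lgr5 GL cells. Sox9 (chr11:112782224-112787760, plus strand) is needed to form and maintain HF stem cells. Its libraries held 2419, 2117 and 1172 CPM at 0w, 432, 897 and 946 CPM at 1w and 714, 765 and 677 CPM at 2w pw1. They held 812, 1255 and 1067 CPM at 4w, 1481, 2134 and 1771 CPM at 8w pw1 and 1580, 1357 and 1438 CPM at 1w pw2. All libraries at 1w and 2w pw1 lay below all at 0w, those at 4w overlapped, and those at 8w pw1 and 1w pw2 lay within the 0w range. Sox9 fell at 1w pw1 (log2 fold change -1.33 ± 0.30, adjusted p = 0.0380), 1 of 2 members called there beside 1.29% of all genes (0.86% lower). This call was lost with 2 surrogate variables (-0.66, adjusted p = 0.259) and without 1 of 10 libraries (adjusted p from 0.0504 to 0.133). These were 0w replicate a or b, 1w pw1 replicate 1 or 2, 4w pw1 replicate b or c, 8w pw1 replicate b or c, or 1w pw2 replicate 2 or 3. At 2w pw1 the log2 fold change was -1.40 ± 0.30 with an adjusted p of 0.154.

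None of the other 4 transcription factors was called. Lhx2 (chr2:38339281-38369733, plus strand), a LIM homeobox factor of HF stem cells, measured 197, 157 and 171 CPM at 0w and 21.2, 96.2 and 72.7 CPM at 1w pw1. Its libraries lay below 0w at 1w (log2 fold change -1.47 ± 0.46, adjusted p = 0.102), 2w (-0.59 ± 0.44, adjusted p = 0.794) and 4w pw1 (-1.18 ± 0.45, adjusted p = 0.359), and overlapped with 0w later on. Nfatc1, which keeps bulge cells quiescent, measured 389, 466 and 132 CPM at 0w, 85.5, 186 and 252 CPM at 1w, and 401, 607 and 591 CPM at 8w pw1. The spread at 0w, where 1 library stood far below the other 2, kept the 1w (-0.92 ± 0.47, adjusted p = 0.297) and 8w (0.69 ± 0.46, adjusted p = 0.982) groups overlapping with it. Foxc1 (chr13:31806633-31812476, plus strand), a forkhead factor with a single exon, was the least abundant, at 30.6 ± 2.45 CPM at 0w and between 9.04 and 72.7 CPM in the libraries of 8w pw1 and 1w pw2. Foxc1 lay below all 0w libraries at 1w (log2 fold change -0.76 ± 0.61, adjusted p = 0.527) and 4w pw1 (-0.78 ± 0.63, adjusted p = 0.709). Tbx1 (chr16:18580979-18590671, minus strand), a T-box factor of HF stem cells, held 179 ± 55.1 CPM at 0w and 120 ± 80.8 CPM at 1w pw1, and its groups overlapped with 0w at all 5 later time points.

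Among the secreted factors, Angptl7 fell furthest and lay below all 0w libraries at every later time point, Fgf18 lay above all of them at 8w pw1, and Postn was lowest at 4w pw1. Their promoter sequences are shown for the first 2, which moved most and in unlike ways after 4w pw1. These are the 250 bases upstream of the RefSeq start (GRCm38.p6), 5′ to 3′ on the gene's strand, with letters that match the SOX motif ACAAT or the NFAT motif GGAAA, on either strand, in capitals. The Angptl7 window is chr4:148500463-148500712 on the minus strand and the Fgf18 window is chr11:33147401-33147650 on the minus strand.
Angptl7: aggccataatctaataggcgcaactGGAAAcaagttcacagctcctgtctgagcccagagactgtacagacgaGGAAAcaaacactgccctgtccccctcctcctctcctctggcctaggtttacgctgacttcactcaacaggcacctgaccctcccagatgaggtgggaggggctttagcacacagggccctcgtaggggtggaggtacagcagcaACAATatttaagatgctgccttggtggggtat
Fgf18: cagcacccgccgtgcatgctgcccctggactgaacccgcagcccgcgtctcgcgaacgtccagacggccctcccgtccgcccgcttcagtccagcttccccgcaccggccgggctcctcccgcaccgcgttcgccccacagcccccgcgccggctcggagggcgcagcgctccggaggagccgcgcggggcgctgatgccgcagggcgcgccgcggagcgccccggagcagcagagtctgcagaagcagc
The Angptl7 window held an NFAT match starting 225 and another 177 bases before the start, and a SOX match 32 bases before it, whereas the Fgf18 window held no match to any of the 6 motifs searched. The SOX letters occur in 27.7% and the NFAT letters in 55.6% of 32851 promoter windows of this length. Over the 10 windows listed for 7 of the members (Cd34, Lhx2, Foxc1, Tbx1, Fgf18, Postn and Angptl7), 3 held SOX and 6 held NFAT letters. None held the LIM homeobox TAATTA, forkhead GTAAACA, T-box AGGTGTGA or TCF/LEF CTTTGA letters, which occur in 4.84, 3.17, 1.12 and 13.8% of all windows. The matches are a description of letters and the motifs do not overlap.

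Angptl7 (chr4:148495183-148500460, minus strand), an angiopoietin-like protein of the extracellular matrix, measured 1615, 1230 and 194 CPM in the Lgr5 GL libraries at 0w. At 1w pw1 the libraries held 0, 13.0 and 34.0 CPM, at 2w 70.3, 23.2 and 85.9 CPM and at 4w 18.5, 14.7 and 14.1 CPM. They held 54.3, 106 and 8.30 CPM at 8w pw1 and 23.7, 55.8 and 32.8 CPM at 1w pw2. No library of any later time point reached the lowest library at 0w, and the group means stayed between 1.55 and 5.90% of the 0w mean. Angptl7 fell at 1w pw1 (log2 fold change -5.97 ± 1.14, adjusted p = 0.0212) and at 4w pw1 (-6.02 ± 1.17, adjusted p = 0.0465), the latter being 1 of 10 members called beside 0.155% of all genes. At 2w the log2 fold change was -4.08 ± 1.04 (adjusted p = 0.252), at 8w pw1 -4.18 ± 1.04 (adjusted p = 0.501) and at 1w pw2 -4.76 ± 1.07 (adjusted p = 0.448). The call at 1w pw1 was lost without 0w replicate a (adjusted p = 0.0554), 0w replicate b (0.0571) or 1w pw1 replicate 1 (0.0531), under limma-voom (0.0702) and with 2 surrogate variables (0.144). The call at 4w pw1 was lost without 1 of 14 libraries (adjusted p from 0.0503 to 0.270), that is, any library other than 0w replicate c, 1w pw1 replicate 1 or 3 or 8w pw1 replicate c. It was also lost with DESeq2 size factors (0.0508), without the filter (0.0508) and with 2 surrogate variables (0.146).

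Fgf18 (chr11:33117430-33147400, minus strand), a growth factor linked to the resting phase of the hair cycle, measured 31.8, 84.9 and 19.6 CPM at 0w. It measured 6.52, 0.566 and 12.7 CPM at 1w, 26.9, 21.7 and 19.4 CPM at 2w and 0, 7.12 and 3.36 CPM at 4w pw1. At 8w pw1 the libraries held 126, 155 and 152 CPM, or 318% of the 0w mean, and at 1w pw2 they held 40.1, 24.5 and 49.3 CPM. Thus the libraries lay below 0w at 1w and 4w pw1, above all of them at 8w pw1, and among them at 1w pw2. Against 0w the log2 fold changes were -2.69 ± 0.73 at 1w (adjusted p = 0.0693), -3.52 ± 0.80 at 4w (adjusted p = 0.103) and 1.66 ± 0.68 at 8w pw1 (adjusted p = 0.769). Postn (chr3:54361109-54391037, plus strand), a matricellular protein that the study uses as an infundibulum marker, measured 2790, 2079 and 1553 CPM at 0w and 557, 1251 and 2771 CPM at 1w pw1, so that these groups overlapped. It lay below 0w at 2w (841 ± 373 CPM) and 4w pw1 (438 ± 184 CPM), where the log2 fold changes were -1.35 ± 0.54 (adjusted p = 0.467) and -2.29 ± 0.56 (adjusted p = 0.1245). At 8w pw1 (516, 1676 and 1318 CPM) it overlapped with 0w.

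The quasi-likelihood test called no member against 0w in Lgr5 GL cells at 2w and 8w pw1 or at 1w pw2 (0% of all genes each). An unadjusted p under 0.05 was reached by 4 members at 2w (8.79% of all genes), 3 at 8w (5.94%) and 2 at 1w pw2 (6.42%). DESeq2 called 3, 1 and 1 members at these time points, the likelihood ratio test 3, 0 and 1, and limma-voom 1, 0 and 1. Shares of all genes called by these other tools are not given, here or below, so their member counts have no background beside them.

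**Figure D3:**
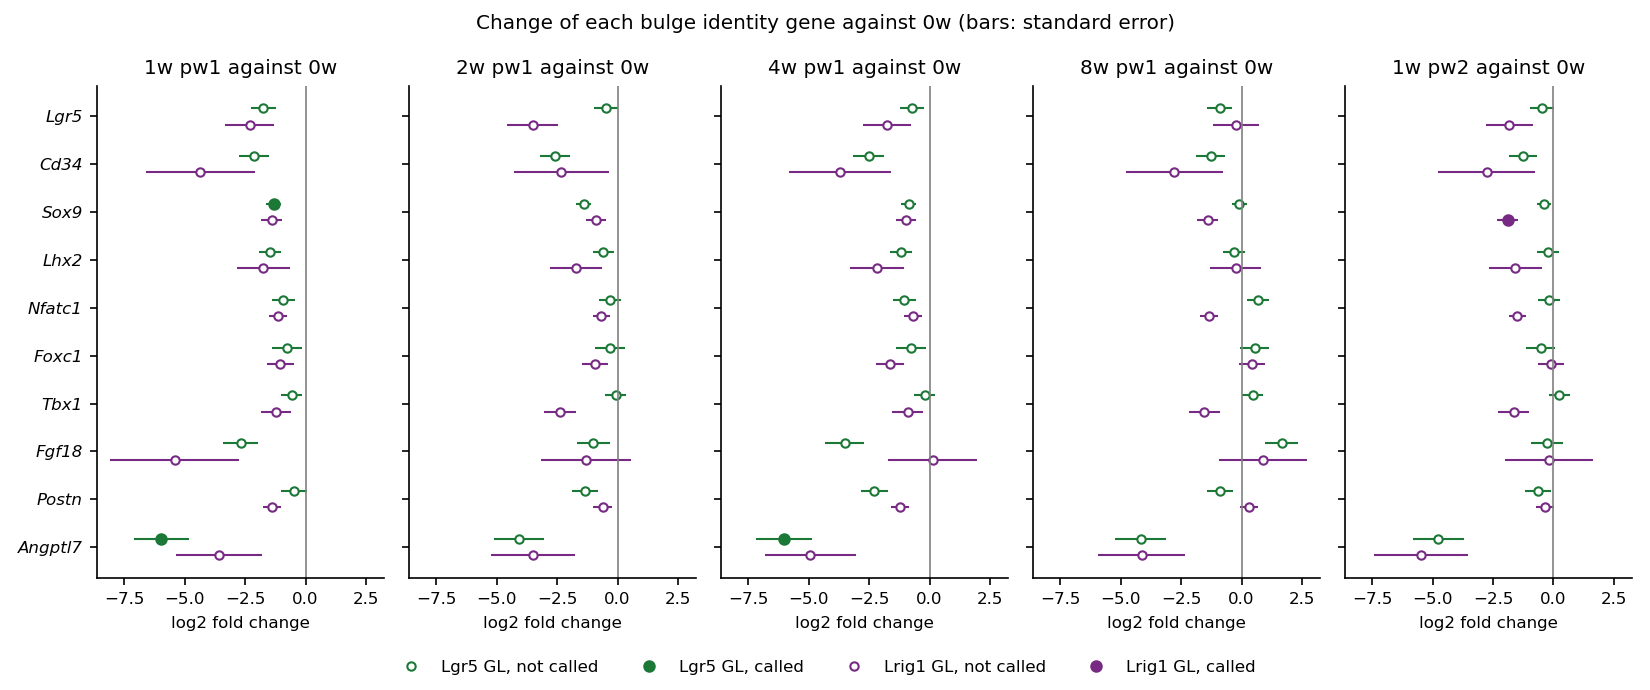
Log2 fold change against 0w, with its standard error, for each bulge identity gene in Lgr5 GL (green) and Lrig1 GL (purple) cells at 5 later time points; filled points are called. The filled points are Sox9 and Angptl7 at 1w pw1 and Angptl7 at 4w pw1 in Lgr5 GL cells, and Sox9 at 1w pw2 in Lrig1 GL cells; the log2 fold change of Fgf18 in Lrig1 GL cells rests on libraries near the floor.

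The return was tested directly by comparing 8w with 1w pw1. Sox9 rose (log2 fold change 1.24 ± 0.30, adjusted p = 0.0473) and Fgf18 rose (4.35 ± 0.77, adjusted p = 0.0152), which is 2 of 10 members called higher beside 0.804% of all genes. For both genes, all 3 libraries at 8w lay above all 3 at 1w pw1. Nfatc1 (1.61 ± 0.47, adjusted p = 0.0966) was also above at 8w pw1 in all 3 libraries. In all, 9 of 10 members had a positive log2 fold change (54.6% of all genes), with Postn (-0.38 ± 0.53, adjusted p = 0.757) as the exception. Angptl7 (1.79 ± 0.98, adjusted p = 0.353), Lgr5 (0.85 ± 0.51, adjusted p = 0.399) and Cd34 (0.88 ± 0.60, adjusted p = 0.467) overlapped between these time points. The call of Fgf18 was lost with 2 surrogate variables (3.43, adjusted p = 0.181) and without 1w pw1 replicate 1 (0.0586), 8w pw1 replicate b (0.0679) or 8w pw1 replicate c (0.0549). The call of Sox9 was lost without the filter (adjusted p = 0.0544), with 2 surrogate variables (0.55, adjusted p = 0.398) and without 1 of 15 libraries (adjusted p from 0.0523 to 0.177), that is, any library other than 0w replicate c, 1w pw1 replicate 3 or 4w pw1 replicate a.

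Between 4w and 1w pw1 no member was called, beside 3.15% of all genes, although Postn was lower at 4w (-1.80 ± 0.55, adjusted p = 0.0747), the only member with an unadjusted p under 0.05 (22.9% of all genes). DESeq2 and the likelihood ratio test each called Postn there, and limma-voom called none. The second wound did not bring a called change either. At 1w pw2 against 8w pw1 no member was called (0% of all genes), and Fgf18 was lower in all 3 libraries (-1.93 ± 0.69, unadjusted p = 0.0115, adjusted p = 1), again the only member with an unadjusted p under 0.05 (3.83%). At 1w pw2 against 1w pw1, the same delay after each wound but in older mice labelled for longer, no member was called (0.266% of all genes). Lgr5 (1.28 ± 0.51, adjusted p = 0.231), Sox9 (0.94 ± 0.30, adjusted p = 0.143), Lhx2 (1.25 ± 0.45, adjusted p = 0.195) and Fgf18 (2.42 ± 0.72, adjusted p = 0.126) were higher after the second wound in all 3 libraries. These 4 of 10 members had an unadjusted p under 0.05, beside 16.8% of all genes. DESeq2 called 2 members there (Sox9 and Fgf18), the likelihood ratio test 1 (Fgf18) and limma-voom none.

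In Lrig1 GL cells no member was called across the time course (0 of 10, beside 1.63% of all 14306 genes tested). Postn (adjusted p = 0.0647), Sox9 (0.0773) and Nfatc1 (0.0908) came nearest, and Foxc1 (0.146), Angptl7 (0.159), Lgr5 (0.175), Tbx1 (0.185), Lhx2 (0.498), Cd34 (0.525) and Fgf18 (0.591) followed. An unadjusted p under 0.05 was reached by 7 members (20.5% of all genes), DESeq2 called 6, the likelihood ratio test 7 and limma-voom none. All 10 log2 fold changes were below 0 at 1w and 2w pw1 (52 and 50.5% of all genes) and at 1w pw2 (52%), 9 at 4w (51.4%) and 7 at 8w pw1 (50.3%). The median of the members was -1.58 at 1w, -1.52 at 2w, -1.43 at 4w, -0.79 at 8w pw1 and, after the second wound, -1.61. Without Fgf18, which had no count in the 3 libraries at 1w pw1, it was -1.41, -1.72, -1.64, -1.35 and -1.64 at the same time points. All 3 libraries lay below all 3 at 0w for 3 members at 1w (6.4% of all genes), 3 at 2w (5.25%) and 4 at 4w pw1 (5.14%). The same was seen for 3 members each at 8w pw1 (12.8%) and at 1w pw2 (10.4%), namely Nfatc1, Sox9 and Tbx1 both times.

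**Figure D4:**
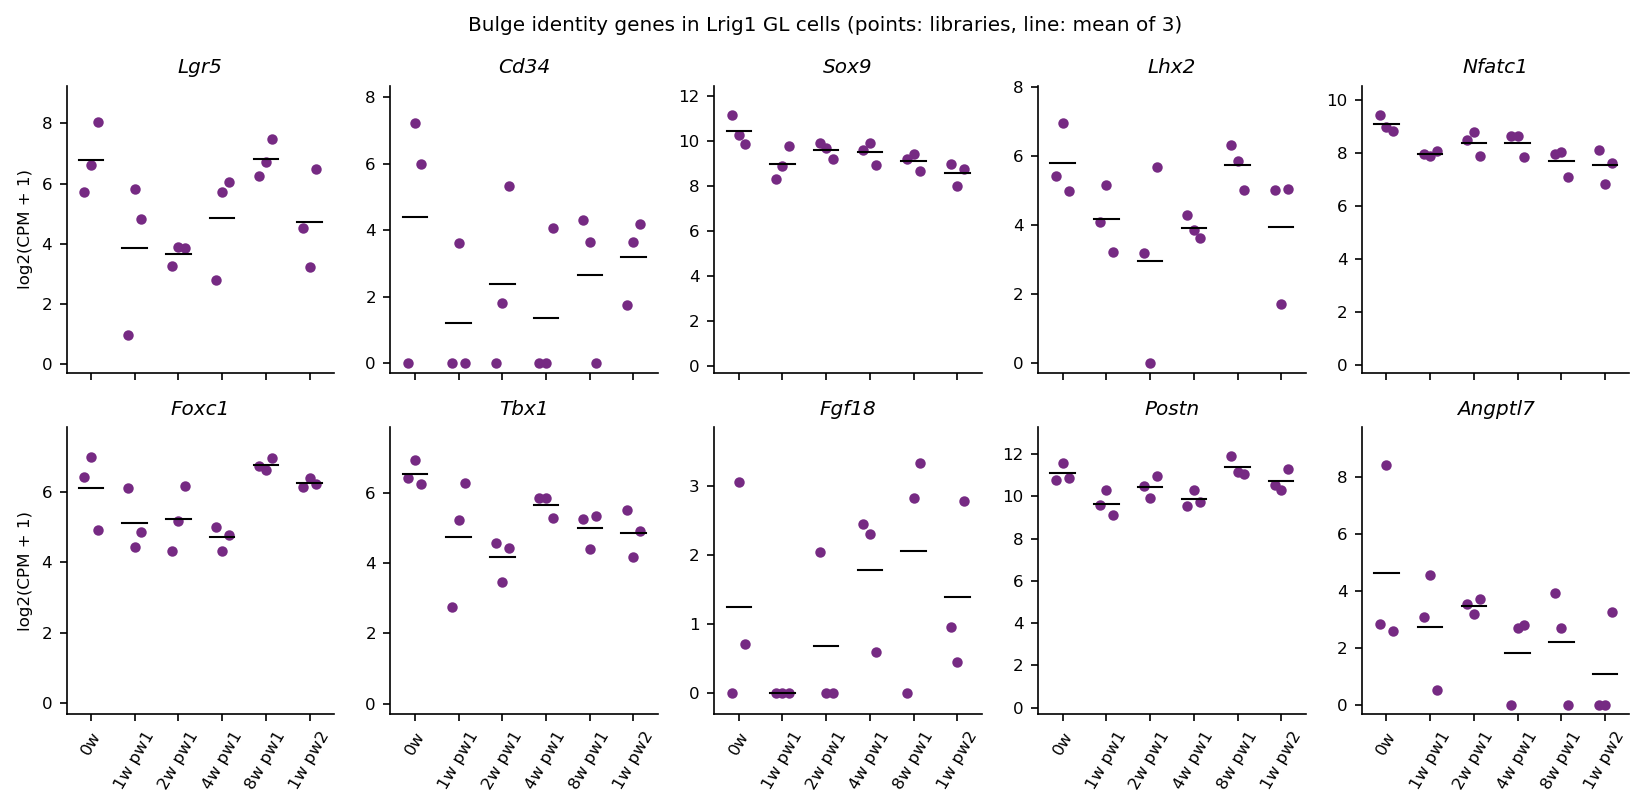
Level of each bulge identity gene in Lrig1 GL cells, as log2 of TMM-scaled CPM plus 1, at 6 time points; points are libraries and lines are the mean of the 3 log2 values. Nfatc1 lies below 0w at all later time points, Postn and Foxc1 are not below the 0w mean at 8w pw1, and Angptl7 and Cd34 at 0w rest on 1 or 2 libraries.

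In Lrig1 GL cells the group means of Sox9 and Nfatc1 lay below 0w at every later time point, and the only call was that of Sox9 at 1w pw2. Sox9 measured 2264, 1221 and 934 CPM at 0w, 320, 467 and 874 CPM at 1w, 964, 831 and 582 CPM at 2w and 771, 967 and 491 CPM at 4w pw1. It measured 578, 686 and 404 CPM at 8w pw1 and 504, 254 and 427 CPM at 1w pw2. The libraries at 1w and 8w pw1 and at 1w pw2 lay below all at 0w, and those at 2w and 4w overlapped with 0w in 1 library or more. Sox9 fell at 1w pw2 (log2 fold change -1.90 ± 0.42, adjusted p = 0.0362), the only member called against 0w at any time point (1 of 10, beside 1.23% of all genes, 0.238% lower). The call was lost without 0w replicate 1 (adjusted p = 0.127), 0w replicate 2 (0.0520), 1w pw2 replicate 1 (0.0592), 1w pw2 replicate 2 (0.206) or 1w pw2 replicate 3 (0.115), and with 2 surrogate variables (-0.88, adjusted p = 0.412). The log2 fold change was -1.41 ± 0.42 both at 1w (adjusted p = 0.191) and at 8w pw1 (adjusted p = 0.0665).

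Nfatc1 measured 688, 506 and 448 CPM at 0w and 249, 233 and 264 CPM at 1w pw1. It measured 353, 441 and 236 CPM at 2w, 396, 400 and 225 CPM at 4w, 248, 260 and 136 CPM at 8w pw1 and 277, 111 and 197 CPM at 1w pw2. Every later library lay below every library at 0w, and the largest differences were at 8w pw1 (-1.35 ± 0.36, adjusted p = 0.0517) and 1w pw2 (-1.49 ± 0.37, adjusted p = 0.0532). Tbx1 measured 85.2, 122 and 74.3 CPM at 0w and lay below 0w at 2w (17.8 ± 6.80 CPM), 4w (50.1 ± 10.7 CPM), 8w pw1 (32.0 ± 10.3 CPM) and 1w pw2 (30.05 ± 13.8 CPM), with adjusted p of 0.229, 0.773, 0.162 and 0.186. In these libraries the share of counts on mitochondrial genes was 12.8 ± 1.77% at 8w pw1 against 4.58 ± 1.24% at 0w, and its part in the results was not tested.

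Postn and Foxc1 had group means at 8w pw1 above those at 0w. Postn measured 1751, 3070 and 1888 CPM at 0w, 757, 1256 and 546 CPM at 1w, and 3872, 2257 and 2115 CPM at 8w pw1. Its libraries at 1w (-1.39 ± 0.39, adjusted p = 0.173) and 4w pw1 (-1.23 ± 0.38, adjusted p = 0.420) lay below 0w, and those at 8w pw1 lay above those at 1w pw1 (1.69 ± 0.39, adjusted p = 0.0618). Of the 8 fibroblast markers, 6 were listed, and they summed to between 92.8 and 395 CPM at 1w pw1, 39.0 and 95.4 CPM at 0w and 38.1 and 80.8 CPM at 8w pw1. The 4 markers that could be tested had a median log2 fold change of 3.41 at 1w pw1 against 0w, with 3 above 0 and 1 below. Of these 4, 3 had an unadjusted p under 0.05 in the quasi-likelihood test (11% of all genes). Col1a1 and Lum of the same list stayed at 1.39 CPM or less in the mean of each group or were not listed. The part of fibroblasts in the values of Postn was not tested. Foxc1 held 79.5 ± 48.3 CPM at 0w, 25.5 ± 5.96 CPM at 4w and 107 ± 13.1 CPM at 8w pw1, where all 3 libraries lay above those at 1w pw1 (1.48 ± 0.56, adjusted p = 0.210).

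The remaining members were low or uneven in Lrig1 GL cells. Lgr5 measured 51.3, 97.1 and 264 CPM at 0w, lay below 0w at 2w pw1 (8.49, 13.9 and 13.5 CPM, log2 fold change -3.52 ± 1.06, adjusted p = 0.268) and overlapped with 0w at 8w pw1 (74.3, 104 and 176 CPM). Lhx2 held 65.3 ± 50.7 CPM at 0w and lay below it at 4w pw1 (14.4 ± 3.68 CPM, adjusted p = 0.623). Cd34 measured 0, 148 and 62.8 CPM at 0w and at most 38.9 CPM in any later library. Angptl7 measured 343 CPM in 0w replicate 2, against 6.16 and 5.12 CPM in the other two and at most 22.6 CPM later, so its 0w mean rests on that library. Fgf18 reached at most 9.11 CPM in any of the 18 libraries and was at 0 in all 3 at 1w pw1, which allows up to 3.39 CPM there at a floor of 3 counts.

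At 1w, 2w, 4w and 8w pw1 no member was called against 0w in Lrig1 GL cells, beside 0.217, 0, 0.0419 and 2.82% of all genes. An unadjusted p under 0.05 was reached by 4, 3, 4 and 4 members (11, 10.5, 8.37 and 22.9% of all genes), DESeq2 called 2, 2, 0 and 2, the likelihood ratio test 1, 1, 0 and 2, and limma-voom none. No member was called at 8w against 1w pw1 (0.356% of all genes) by the quasi-likelihood test, with 3 at an unadjusted p under 0.05 (16.3%), while DESeq2, the likelihood ratio test and limma-voom each called Postn. None was called at 4w against 1w pw1 (0%, with 0 members at an unadjusted p under 0.05, 8.46% of all genes), at 1w pw2 against 8w pw1 (0.00699%, with 0, 5.72%) or at 1w pw2 against 1w pw1 (0%, with 1, Postn, 8.87%), by any of these 4 tools.

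Between populations at 0w no member was called (0 of 10, beside 2.86% of 16153 genes tested in a joint model), and 5 had an unadjusted p under 0.05 (17.5%). Lgr5, Lhx2, Tbx1 and Fgf18 were higher in all 3 Lgr5 GL than in all 3 Lrig1 GL libraries (4 of 10, beside 11.3% of all genes). Fgf18 came nearest to a call, with 35.5, 93.9 and 21.9 jointly scaled CPM in Lgr5 GL and 0, 6.35 and 0.569 CPM in Lrig1 GL cells (log2 fold change 4.34 ± 1.26, adjusted p = 0.0585). Its call was made by DESeq2, by the likelihood ratio test and under the stricter filter. The Lgr5 gene itself was higher in Lgr5 GL cells (557, 547 and 359 against 44.4, 84.3 and 235 CPM, 2.01 ± 0.79, adjusted p = 0.175), as were Lhx2 (1.77 ± 0.80, adjusted p = 0.240) and Tbx1 (1.28 ± 0.53, adjusted p = 0.192). Angptl7 (3.45 ± 1.32, adjusted p = 0.156) overlapped through the single Lrig1 GL library with 298 CPM, and Nfatc1 (-0.38 ± 0.42, adjusted p = 0.690) and Postn (0.29 ± 0.48, adjusted p = 0.810) differed by less than the spread between libraries. Population and count table cannot be told apart, and Col1a1 and Col1a2 were also higher in Lgr5 GL cells at 0w (4.56 ± 0.95, adjusted p = 0.00769, and 7.95 ± 1.56, adjusted p = 0.00426). Their part in these results was not tested.

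Whether the change against 0w differed between populations was tested for each member at each later time point, and no interaction was called (0 of 50 tests, beside 0.0495, 0, 0.0929, 1.11 and 0.155% of all genes at 1w, 2w, 4w and 8w pw1 and 1w pw2). Nfatc1 at 8w pw1 came nearest, with a change 1.97 ± 0.60 (log2) higher in Lgr5 GL than in Lrig1 GL cells (adjusted p = 0.0889), and was called by DESeq2 and by the likelihood ratio test. Sox9 (1.25 ± 0.51, adjusted p = 0.196) and Tbx1 (1.95 ± 0.75, adjusted p = 0.168) also had an unadjusted p under 0.05 there. At 1w pw2 the same held for Sox9 (1.47 ± 0.51, adjusted p = 0.223), Tbx1 (1.86 ± 0.75, adjusted p = 0.288) and Nfatc1 (1.25 ± 0.60, adjusted p = 0.375). That is 3 of 10 members at each of these time points, beside 17.6 and 13% of all genes, and in these tests the changes in Lgr5 GL cells were the higher ones. At 1w, 2w and 4w pw1 an unadjusted p under 0.05 was reached by 0, 2 and 1 members (15, 9.34 and 10.5% of all genes), and limma-voom called no interaction. The return of Sox9 in Lgr5 GL and its low level in Lrig1 GL cells are therefore not shown to differ by this test.

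Other bulge genes moved in the same period. Of 22 listed in Lgr5 GL cells, 5 were called across the time course (beside 1.13% of all genes), namely Krt15 (adjusted p = 0.0020), Dkk3 (0.0252), Bmp6 (0.0271), Npnt (0.0417) and Col17a1 (0.0465). Krt15, a keratin of bulge cells, was the most abundant, with 16189 ± 2473 CPM at 0w, 7243 ± 3085 CPM at 1w, 6112 ± 1198 CPM at 2w, 3368 ± 991 CPM at 4w, 19196 ± 1391 CPM at 8w pw1 and 11855 ± 2489 CPM at 1w pw2. It fell at 1w (-1.16 ± 0.28, adjusted p = 0.0498) and 4w pw1 (-2.27 ± 0.29, adjusted p = 0.0034) and rose from 1w to 8w pw1 (1.41 ± 0.28, adjusted p = 0.0223), as did Bmp6 (5.11 ± 0.90, adjusted p = 0.0152). Nfib, a transcription factor of HF stem cells, fell at 1w (-1.40 ± 0.28, adjusted p = 0.0272). Dkk3, a secreted Dickkopf family member (-2.67 ± 0.41, adjusted p = 0.0140), and Col17a1, a hemidesmosomal collagen (-1.71 ± 0.32, adjusted p = 0.0438), fell at 4w pw1. The summed level of the list was 17440 to 25157 CPM at 0w, 6721 to 13886 CPM at 1w, 8405 to 10528 CPM at 2w, 5932 to 7537 CPM at 4w, 22440 to 23683 CPM at 8w pw1 and 14803 to 18510 CPM at 1w pw2. The list's median log2 fold change was -0.93 at 1w, -0.37 at 2w, -0.27 at 4w, -0.23 at 8w pw1 and, after the second wound, -0.09.

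**Figure D5:**
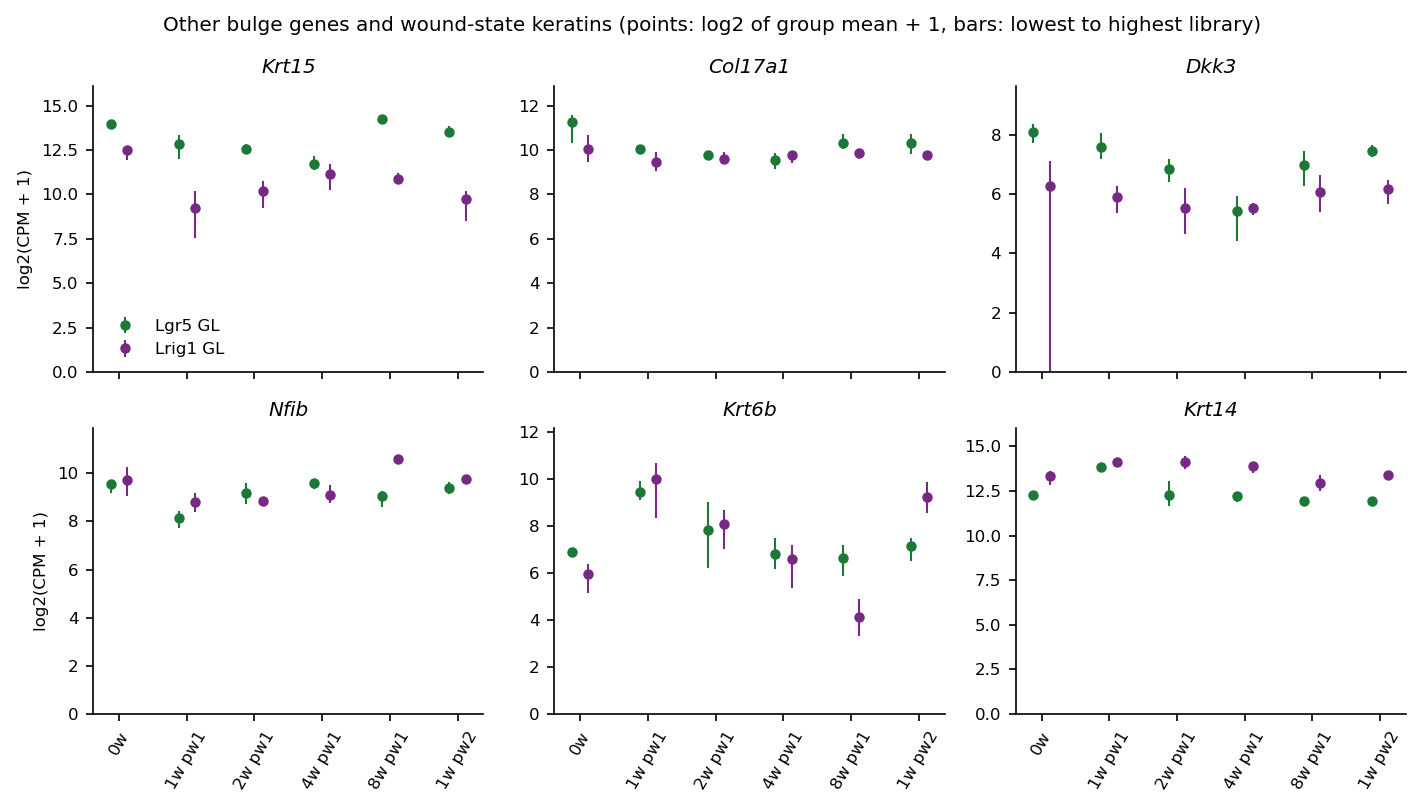
Level of 4 other bulge genes (Krt15, Col17a1, Dkk3, Nfib), of the wound-state keratin Krt6b and of the basal keratin Krt14 in Lgr5 GL (green) and Lrig1 GL (purple) cells, as log2 of CPM plus 1; points are the log2 of the group mean plus 1 and bars run from the lowest to the highest of 3 libraries. In Lgr5 GL cells the mean of Krt15 at 8w pw1 is not below that at 0w. In Lrig1 GL cells Krt15 lies below its 0w level at 1w pw1 and 1w pw2. Krt6b is highest at 1w pw1 in both populations.

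In Lrig1 GL cells 3 of 21 other bulge genes tested were called across the time course (beside 1.63% of all genes), Fzd7, Krt15 and Barx2. Krt15 held 5774 ± 1655 CPM at 0w, fell at 1w pw1 (597 ± 525 CPM, -3.28 ± 0.62, adjusted p = 0.0316) and was low at 1w pw2 (854 ± 437 CPM, -2.76 ± 0.61, adjusted p = 0.0360). Barx2, a homeobox factor, fell at 8w pw1 (-2.01 ± 0.34, adjusted p = 0.0144), whereas Gas1, a surface protein, rose at 8w pw1 (1.37 ± 0.34, adjusted p = 0.0428) and 1w pw2 (1.52 ± 0.34, adjusted p = 0.0386). The interaction was called for both at 8w pw1 (Barx2 2.06 ± 0.53, adjusted p = 0.0486, and Gas1 -1.97 ± 0.44, adjusted p = 0.0284). Against 1w pw1, the Wnt receptor gene Fzd7 (1.51 ± 0.31, adjusted p = 0.0431) and Nfib (1.77 ± 0.31, adjusted p = 0.0219) rose at 8w pw1. The summed level of the list ran from 6822 to 11948 CPM at 0w, 2593 to 4476 CPM at 1w and 6124 to 7130 CPM at 8w pw1.

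Genes of other compartments were read from lists chosen in the same way. In the wound-state list, 2 of 10 genes were called across the time course in Lgr5 GL cells (Krt6b and Sbsn, beside 1.13% of all genes). In Lrig1 GL cells 3 of 10 were called (Krt6b, Krt16 and Krt6a, beside 1.63%). Krt6b, an injury-induced keratin, rose at 1w pw1 in Lgr5 GL cells (from 119 ± 11.8 to 707 ± 224 CPM, 2.57 ± 0.61, adjusted p = 0.0454). It also rose in Lrig1 GL cells (from 60.9 ± 24.0 to 1025 ± 675 CPM, 4.07 ± 0.68, adjusted p = 0.0157). It rose in Lrig1 GL cells again at 1w pw2 (3.29 ± 0.66, adjusted p = 0.0260). Krt14, a basal keratinocyte marker, rose at 1w pw1 in Lgr5 GL cells (from 4978 ± 337 to 14406 ± 2202 CPM, 1.53 ± 0.29, adjusted p = 0.0197). It was the only one of the 6 keratinocyte markers called there, with 2 above and 4 below 0w and a median log2 fold change of -0.15. In the hair germ and matrix list, 1 of 8 genes was called across the time course in Lgr5 GL cells (beside 1.13% of all genes), the hair matrix factor Dlx3 (adjusted p = 0.00747). In Lrig1 GL cells none of 7 was called (beside 1.63%), with 2 at an unadjusted p under 0.05 (20.5% of all genes). Dlx3 was higher at 4w pw1 than at 1w (5.81 ± 0.86, adjusted p = 0.00491), as was the Wnt effector Lef1 (3.80 ± 0.98, adjusted p = 0.0444). None of 9 junctional zone and infundibulum genes was called by the quasi-likelihood test across the time course, nor was any against 0w. Across the time course 2 had an unadjusted p under 0.05 in Lgr5 GL (16.9% of all genes) and 3 in Lrig1 GL cells (20.5%). The alternative tools were not run on the lists. In Lgr5 GL cells Ly6a of that list was lower at 4w pw1 than at 1w (-4.57 ± 1.18, adjusted p = 0.0448).

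Direct partners of the members gave few calls. Of 12 tested in Lgr5 GL cells, none was called across the time course (beside 1.13% of all genes) or against 0w. Across the time course 5 of the 12 had an unadjusted p under 0.05, beside 16.9% of all genes. Ldb1, which binds LIM homeobox factors such as LHX2, rose from 1w to 8w pw1 (60.4 ± 32.7 to 185 ± 25.8 CPM, 1.62 ± 0.36, adjusted p = 0.0347). Lgr4, the paralogue of Lgr5, held 966 ± 127 CPM at 0w and 429 ± 215 CPM at 1w pw1 in Lgr5 GL cells without a call. Of 9 partners tested in Lrig1 GL cells, Lgr4 was called across the time course (adjusted p = 0.0473, beside 1.63% of all genes called). It held 301 ± 189 CPM at 0w and 715 ± 43.0 CPM at 8w pw1. At 0w it was higher in Lgr5 GL than in Lrig1 GL cells (2.03 ± 0.41, adjusted p = 0.00504). The ligand genes Rspo1 and Rspo2 held at most 3.98 CPM in the mean of any group, and Rspo3 was not listed.

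Correlations between members were higher in Lgr5 GL than in Lrig1 GL cells. Over the 18 libraries of a population, which share their time points and scaling, the Spearman correlation between 2 members had a median of 0.517 in Lgr5 GL cells, with all 45 pairs positive (0.261 to 0.843). In Lrig1 GL cells the median was 0.194, with 35 of 45 pairs positive (-0.271 to 0.889). Lrig1 GL libraries were shallower (median of 1930063 counts against 4284763 in Lgr5 GL), and Fgf18, Cd34 and Angptl7 were at 0 in some of them. The part of depth in this difference was not tested, and pairs of other genes were not set beside those of the members. Nfatc1 with Fgf18 (0.843) and Cd34 with Postn (0.841) were the closest pairs in Lgr5 GL cells, and Sox9 with Nfatc1 (0.889) and Lhx2 with Postn (0.742) in Lrig1 GL cells. Among 9166 other genes with a mean of at least 10 CPM in Lgr5 GL cells, Camk2g (0.895), Synrg (0.860), Atp8b2 (0.827), D16Ertd472e (0.825) and Fam193b (0.812) were closest in pattern to Lgr5. Col6a1 (0.934), Cited2 (0.909), Plpp1 (0.903), Sytl1 (0.866) and Ecm1 (0.864) were closest to Cd34.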

How the data were processed

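Mini-bulk RNA-seq libraries (modified Smart-seq2 with oligo(dT) capture) were made from small numbers of sorted tdTomato+ cells. Per the labels, reads were trimmed with Trim Galore 0.5.0, aligned with HISAT2 to mm10 (GRCm38) and assigned with featureCounts, and per the study's methods exons were summed by gene name of GENCODE M20. The strand setting is not given in the sources used here. The authors deposited raw read counts per gene, in 1 table per population, with no normalization.

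The 2 tables were analysed separately, and jointly for genes in both, with edgeR 4.0.16 in R 4.3.3 (TMM scaling, filterByExpr with a minimum of 10 counts, quasi-likelihood F-tests, Benjamini-Hochberg adjustment over all genes tested). A gene was called at an adjusted p under 0.05, with a log2 fold change above 1 in size against 0w or between populations. Direct contrasts (4w or 8w against 1w pw1, and 1w pw2 against 8w or 1w pw1) and interactions needed the adjusted p alone. The script was tested on simulated data with known changes. Counts carry no molecular identifiers and each library holds few cells, so floors cover counting error only and not which cells were drawn.

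The members and lists were chosen with earlier results of these data known. All 10 members were named, called or not. From each list, at most 4 called genes per comparison were named, except that all 5 other bulge genes called across the Lgr5 GL time course are given. For Lgr5 and Cd34 the 5 genes closest in Spearman correlation over the Lgr5 GL libraries were named (mean of at least 10 CPM, names of predicted genes left out). Alternatives were other size factors, filters and prior counts, DESeq2 1.42.0, the edgeR likelihood ratio test, limma-voom 3.58.1, sva 3.50.0 with 2 surrogate variables, a replicate block, Gm12415 left out and each library left out in turn. Exon lengths and coordinates came from GENCODE M21 (GRCm38), and promoters from RefSeq.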

Additional observations from a re-analysis of the deposited data

How the results depend on the processing

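No called result turned its direction under any alternative run. The comparisons rest on 3 libraries a group with wide spread (biological coefficient of variation 0.698 for the Lrig1 GL table and 0.662 for the Lgr5 GL table), and low members such as Fgf18 in Lrig1 GL cells lie near the floor. Counts of called members moved mainly with the tool, and the cause was not tested. The share of all genes called under each alternative is not given here, so these counts describe the members alone. In Lrig1 GL cells, 0 members were called across the time course, 6 by DESeq2 and 7 by the likelihood ratio test. Of 50 tests against 0w, 1 was called, 8 by DESeq2, 6 by the likelihood ratio test, 4 under a stricter filter (minimum of 30 counts, which leaves Angptl7 and Fgf18 untested), 2 with the trend on GC content removed (an alternative chosen after seeing the data) and 0 with 2 surrogate variables. Of 20 tests against 1w pw1, 0 were called, and 1 by DESeq2, the likelihood ratio test, limma-voom and under the stricter filter. In Lgr5 GL cells, 3 members were called across the time course, 5 by DESeq2, 6 by the likelihood ratio test and 5 with the GC trend removed. Of 50 tests against 0w, 3 were called, 15 by DESeq2 and 14 by the likelihood ratio test. Of 20 tests against 1w pw1, 2 were called, 4 by DESeq2 and by the likelihood ratio test, and 1 without a filter and with 2 surrogate variables. For the second wound 0 were called, 2 by DESeq2 and 1 by the likelihood ratio test. Between populations at 0w 0 were called, and 1 by DESeq2, the likelihood ratio test and under the stricter filter. Of the interactions 0 were called, and 1 by DESeq2 and by the likelihood ratio test.

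Without 1 library in turn, called members in Lrig1 GL cells ranged from 0 to 1 across the time course (1 without 2w pw1 replicate c), 0 to 3 against 0w (0 without 0w replicate 1 or 2 or any 1w pw2 replicate, 3 without 2w pw1 replicate c, 2 without 4w pw1 replicate c), 0 to 1 against 1w pw1 (1 without 1w pw1 replicate 2) and 0 to 0 for the second wound. In Lgr5 GL cells they ranged from 2 to 3 across the time course, 0 to 4 against 0w, 0 to 2 against 1w pw1 and 0 to 0 for the second wound. Between populations they ranged from 0 to 2 at 0w (2 without Lrig1 GL 0w replicate 2, 1 without Lrig1 GL 2w or 8w pw1 replicate a) and 0 to 0 for the interactions.

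Samples with the same replicate number did not deviate together (mean r of 0.00369 over 9 pairs for Lrig1 GL and -0.0155 over 3 pairs for Lgr5 GL cells), so the numbers do not pair the samples. With the replicate number as a block, where a column carries one, 1 test against 1w pw1 was called in Lgr5 GL cells and 2 members between populations at 0w. Under the block, Sox9 in Lgr5 GL cells was not called over all time points (adjusted p = 0.0548), at 1w pw1 against 0w (0.0546) or between 8w and 1w pw1 (0.0709), nor in Lrig1 GL cells at 1w pw2 against 0w (0.0501).

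In the comparisons against 0w the number of members with a log2 fold change below 0 did not change under the 2 other scalings (DESeq2 size factors, Gm12415 left out), whereas with 2 surrogate variables it was 7 of 10 at 1w pw1 in Lgr5 GL cells. With DESeq2 size factors it went from 6 to 3 between 4w and 1w pw1 in Lgr5 GL cells, where the median of all genes moved by 0.128 (log2), and from 9 to 10 between 1w pw2 and 8w pw1 in Lrig1 GL cells.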
